A study of Mus musculus with 6 samples.

Results

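The 44 collagen chain genes of a 25140-gene count table were followed in mouse fibroblasts given TGFβ or vehicle. Members were all genes whose symbol has the form Col, a number, the letter a and a number, and they were grouped by the class of collagen their chains build. Every library came from primary fibroblasts of C57BL/6 mice at passage 1, with no genetic alteration named. The labels place the cells in the adult heart and the study's methods likewise name cardiac fibroblasts for the RNA-seq, whereas its figure legends speak of embryonic fibroblasts. Both groups were held in 1% FBS for 16 h by the labels, and the treated cells then received 10 ng/ml TGFβ for 24 h while the vehicle cells received none. The study's methods instead place the change to 1% FBS 24 h before treatment and keep it throughout. Polyadenylated mRNA was sequenced in 3 libraries per group. The count columns carry a group name but no replicate number, so the vehicle libraries are called A, B and C and the TGFβ libraries D, E and F in the order of the columns. The study describes them as biological replicates, and p-values measure the spread between these libraries.

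Collagens are trimers of α chains wound into a helix of glycine repeats. The fibrillar types (I, II, III, V, XI, XXIV and XXVII) form the tensile fibres of the matrix, type IV builds the sheet of basement membranes, and type VI forms beaded microfilaments around cells. FACIT collagens sit on the surface of fibrils, the network types VIII and X form short-chain lattices, type VII makes anchoring fibrils, and the transmembrane types are shed from or held at the cell surface. The multiplexins XV and XVIII carry glycan chains near basement membranes. Cardiac fibroblasts make most of the interstitial collagen of the heart, and TGFβ is a cytokine known to turn fibroblasts into myofibroblasts, cells that contract and lay down matrix.

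TGFβ did not move the collagen genes in a common direction. Of the 44 chains, 39 had enough counts to be tested, and 11 of these rose, 12 fell and 16 did not pass an adjusted p of 0.05 (edgeR quasi-likelihood test, adjusted over all 14334 genes tested). Over all genes tested, 40.7% changed, 20.5% upward and 20.1% downward, against 59.0% of the tested chains. The median log2 fold change of the tested chains was 0.02, beside -0.0013 for all genes, while the median of its absolute size was 0.56 beside 0.21. A change beyond 1 on the log2 scale was seen in 10 chains, 4 upward and 6 downward. Of all genes tested, 6.77% had one, 346 genes upward and 625 downward, so large falls outnumbered large rises there too. The 12 falls of chains and the 6 beyond 1 include *Col6a6* and *Col13a1*, which passed the filter on low counts through the vehicle libraries alone and so had to differ. In 24 of the 39 tested chains the groups did not overlap in CPM, the counts divided by TMM-adjusted library totals, which held for 53.3% of the genes tested. These 24, like the 59.0% that changed, also include *Col6a6* and *Col13a1*. In bulk RNA, fewer cells of a type and less RNA per cell cannot be told apart.

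**Figure D1:**
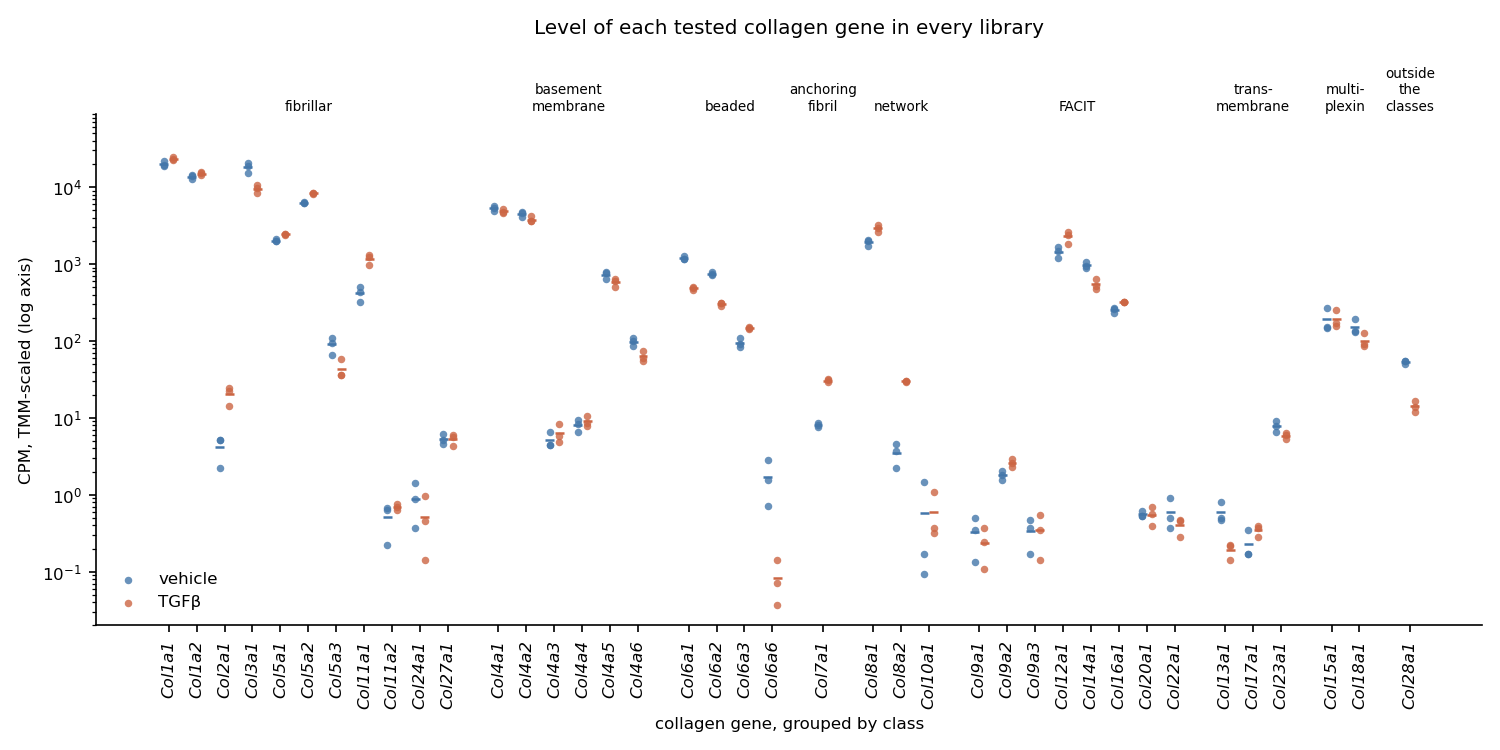
Level of each of the 39 tested collagen genes in CPM (log axis) in every library, with vehicle in blue, TGFβ in orange and a line at each group's mean. Levels run from Col1a1, with a vehicle mean of 19992 CPM, down to Col6a6 at 0.0366 CPM in its lowest TGFβ library, and the groups stand clear of each other in Col8a2, Col7a1, Col6a1 and Col28a1 but not in Col1a2 or Col4a1.

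The libraries held 27851677 to 31072338 counts on genes. All 10 fibroblast markers were tested and summed to 8401 to 8643 CPM with vehicle and 6617 to 6804 CPM with TGFβ, with 7 of them lower and none higher, where *Lum*, *Dcn* and *Ddr2* also belong to lists of collagen partners below. Endothelial markers, all 8 tested and none called, summed to 448 to 691 CPM with vehicle and 406 to 560 CPM with TGFβ. Leukocyte markers (6 of 8 tested) summed to 241 to 344 and 209 to 312 CPM, and neither *Cd3e* nor *Cd79a* was tested. Most of this was *Lyz2*, at 201 to 290 CPM with vehicle and 172 to 258 CPM with TGFβ. *Ptprc* stood at 2.92 to 4.43 CPM with vehicle and 2.52 to 3.47 CPM with TGFβ. Of 8 cardiomyocyte markers, 3 were tested and their list summed to 38.6 to 59.7 CPM with vehicle and 27.5 to 40.6 CPM with TGFβ. Nearly all of this was *Tnnt2*, at 37.6 to 58.3 CPM with vehicle and 26.6 to 39.5 CPM with TGFβ. *Actn2*, *Myh6*, *Myh7*, *Pln* and *Ryr2* were not tested. In the smooth muscle and pericyte list (8 tested) 2 genes rose and 1 fell, with sums of 359 to 389 and 245 to 308 CPM. The gene that fell was *Notch3*, from 191 to 224 CPM with vehicle to 48.7 to 63.0 CPM with TGFβ. *Cspg4* rose from 16.6 to 22.9 CPM to 40.0 to 63.3 CPM, and *Smtn* from 87.4 to 93.4 CPM to 104 to 117 CPM. The lower sum therefore does not describe the list as a whole. For 7 tested mesothelial markers the sums were 25.3 to 92.8 and 16.9 to 50.7 CPM.

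The collagen share of each library did not separate the groups. Collagen transcripts made up 7.43%, 8.10% and 8.41% of all counts in the vehicle libraries A to C and 7.28%, 7.55% and 7.74% in the TGFβ libraries D to F. The groups, with means of 7.98% ± 0.50 and 7.52% ± 0.23 (SD, n = 3 each), overlapped (two-sided exact permutation test, p = 0.3, where 0.1 is the smallest p that 3 libraries against 3 allow). This overlap rests on library A, since B and C lay above every TGFβ library. *Col1a1*, *Col1a2*, *Col3a1*, *Col5a2*, *Col4a1* and *Col4a2* together held 86.6% ± 1.32 of the collagen counts with vehicle and 84.7% ± 1.46 with TGFβ. *Col3a1* alone fell from 1.86% ± 0.26 to 0.939% ± 0.125 of all counts, whereas the other 43 chains went from 6.12% ± 0.24 to 6.58% ± 0.11. Neither overlapped between the groups (exact permutation test, p = 0.1 each). Of the chains named here, *Col3a1* had the largest loss of counts. Setting it apart favours a rise in the remainder, and these p-values do not account for that choice.

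Per kilobase of each gene's longest transcript, *Col1a1* had the highest level in both groups, 3371 ± 256 CPM per kb with vehicle and 3960 ± 215 with TGFβ. *Col3a1*, at 3285 ± 467 CPM per kb with vehicle, lay within 1 SD of *Col1a1* there. With TGFβ *Col3a1* stood at 1718 ± 216 and below *Col1a2*, whose level was 2799 ± 126. *Col5a2*, *Col4a1*, *Col4a2* and *Col8a1* held ranks 4 to 7 in both groups. Further down, *Col6a1* went from rank 8 to 11 and *Col6a2* from 10 to 15, while *Col11a1* went from 14 to 10 and *Col12a1* from 12 to 9.

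**Figure D2:**
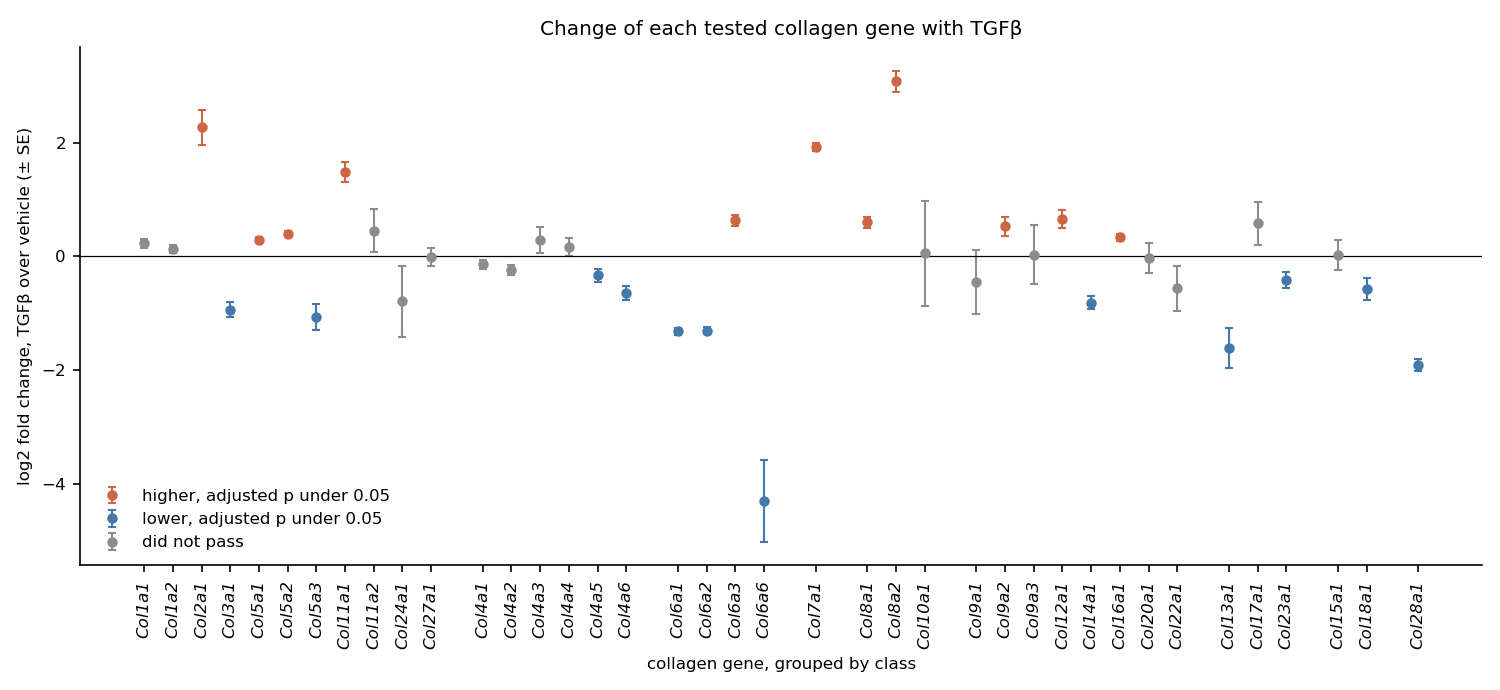
Log2 fold change of TGFβ over vehicle with its standard error for the 39 tested collagen genes, grouped by class, with orange for genes that rose, blue for genes that fell and grey for genes that did not pass. The points run from -4.30 for Col6a6 to 3.08 for Col8a2, with rises and falls side by side among the fibrillar, beaded and FACIT chains.

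Type I collagen, the main fibre of scar and interstitium, is a heterotrimer of the chains of *Col1a1* (chr11:94936224-94953042, plus strand, GRCm38, GENCODE M21) and *Col1a2* (chr6:4504814-4541544, plus strand). *Col1a1* was read at 18825, 19446 and 21704 CPM with vehicle and at 22551, 22964 and 24935 CPM with TGFβ. All TGFβ libraries lay above all vehicle libraries, but the log2 fold change of 0.23 (SE 0.08) did not pass the threshold (adjusted p = 0.055). It did pass with DESeq2 (adjusted p = 0.0093), with limma-voom (0.0369), with no filter on low counts (0.0173) and without library C (0.0291). *Col1a2* was read at 12660, 13962 and 14347 CPM with vehicle and 14232, 15555 and 15114 CPM with TGFβ, so the groups overlapped (log2 fold change 0.13, SE 0.07, adjusted p = 0.196).

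*Col3a1* encodes the single chain of type III collagen, which forms fine fibrils together with type I. Its levels of 15402, 18977 and 20460 CPM with vehicle fell to 8346, 9584 and 10747 CPM with TGFβ, and the groups lay apart. This is 0.523 times the vehicle mean, with a log2 fold change of -0.94 (SE 0.13, adjusted p = 0.00104). The neighbouring gene is *Col5a2*. *Col3a1* lies at chr1:45311538-45349706 on the plus strand and *Col5a2* at chr1:45374321-45503282 on the minus strand, 24614 bases away, and their changes had opposite signs. The log2 ratio of *Col1a1* to *Col3a1* counts went from 0.29, 0.04 and 0.09 with vehicle to 1.43, 1.26 and 1.21 with TGFβ. Most of this shift was the fall of *Col3a1*, since the change of *Col1a1* was small and did not pass.

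Type V collagen lies inside type I fibrils and helps to set their width, and type XI is its close relative, best known from cartilage. *Col5a1* stood at 1992, 2087 and 1968 CPM with vehicle and 2490, 2463 and 2416 CPM with TGFβ. *Col5a2* stood at 6170, 6285 and 6326 CPM with vehicle and 8404, 8265 and 8152 CPM with TGFβ. Both rose with groups apart, by 0.29 (SE 0.05, adjusted p = 0.0030) and 0.40 (SE 0.05, adjusted p = 0.00086) on the log2 scale. The third chain of the type, *Col5a3*, went the other way, from 65.5, 94.9 and 110 CPM to 36.0, 35.7 and 57.4 CPM (log2 fold change -1.06, SE 0.23, adjusted p = 0.0085).

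*Col11a1* (chr3:114030540-114220718, plus strand) had the largest rise among the fibrillar chains of high level. The vehicle libraries held 438, 504 and 316 CPM and the TGFβ libraries 1242, 1305 and 982 CPM, a 2.80-fold higher mean (log2 fold change 1.49, SE 0.18, adjusted p = 0.00048). The log2 ratio of *Col11a1* to *Col5a1*, chains that can share a trimer, went from -2.29 ± 0.31 to -1.07 ± 0.20. *Col2a1*, the chain of cartilage type II collagen (chr15:97975602-98004695, minus strand), rose from 5.15, 5.19 and 2.25 CPM to 24.1, 22.5 and 14.4 CPM (log2 fold change 2.27, SE 0.30, adjusted p = 0.00088). Library C was the lowest vehicle library and F the lowest TGFβ library for both genes. *Col2a1* in TGFβ cells was still far below *Col1a1*, at 3.98 ± 1.02 CPM per kb of the longest transcript.

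The other fibrillar chains stood low and did not pass. *Col27a1* had a mean of 5.29 CPM (log2 fold change -0.01), *Col24a1* 0.701 CPM (-0.79) and *Col11a2* 0.602 CPM (0.45). In the chondrocyte list 5 of 8 markers were tested, and *Cnmd*, *Hapln1* and *Matn1* were not. Of those tested 3 rose and 1, *Sox5*, fell, beside 20.5% and 20.1% of all genes tested. The list summed to 113 to 152 CPM with vehicle and 191 to 222 CPM with TGFβ. Most of this was *Sox9*, at 76.3 to 111 CPM with vehicle and 120 to 146 CPM with TGFβ. The part of the list in the changes of *Col2a1* and *Col11a1* was not tested.

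Among the basement membrane chains, *Col4a1* and *Col4a2* build the common type IV heterotrimer and were the fifth and sixth highest collagen genes. Their starts lie 21 bases apart on opposite strands (*Col4a1* chr8:11198423-11312826, *Col4a2* chr8:11312805-11449287), and the annotated genes share 22 bases at their starts, where reads could be counted to either gene. *Col4a1* was read at 4921, 5671 and 5418 CPM with vehicle and 4736, 5216 and 4616 CPM with TGFβ (log2 fold change -0.14, SE 0.08, adjusted p = 0.196). *Col4a2* was read at 4115, 4696 and 4574 CPM with vehicle and 3608, 4168 and 3581 CPM with TGFβ (log2 fold change -0.24, SE 0.08, adjusted p = 0.052). Groups overlapped in both genes. *Col4a2* passed under 7 of 12 other fits, among them DESeq2 (adjusted p = 0.0143), and the log2 ratio of *Col4a1* to *Col4a2* went from 0.26 ± 0.01 to 0.36 ± 0.03 without overlap.

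*Col4a5* and *Col4a6*, chains of other type IV trimers, lie head to head on the X chromosome with starts 1309 bases apart, and both fell. *Col4a6* went from 110, 98.4 and 85.9 CPM to 74.3, 60.1 and 54.8 CPM (log2 fold change -0.64, SE 0.12, adjusted p = 0.0051), with groups apart. *Col4a5* went from a mean of 730 to 580 CPM (-0.33, SE 0.11, adjusted p = 0.0427), a call that was lost without library A, B, E or F (adjusted p between 0.0666 and 0.133). The kidney chains *Col4a3* and *Col4a4*, with starts 72 bases apart, had means of 5.73 and 8.60 CPM and did not pass (log2 fold changes 0.29 and 0.17), and *C430014B12Rik*, on the opposite strand of *Col4a3*, had 11.3% of its counts. Both were highest in libraries A and D of their groups, as was the summed mesothelial list, at 92.8 and 50.7 CPM. This order was not particular to them. The summed cardiomyocyte, chondrocyte and Schwann cell lists, *Col4a6* and *Col12a1* were also highest in A and D. The part of these lists was not tested.

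Type VI collagen is assembled from the chains of *Col6a1*, *Col6a2* and, in most tissues, *Col6a3*, and here the partners went in opposite directions. *Col6a1* (chr10:76708792-76726168, minus strand) and *Col6a2* (chr10:76595762-76623630, minus strand) are neighbours, whereas *Col6a3* lies on another chromosome (chr1:90765923-90843971, minus strand). The 250 bases before the RefSeq start of each (GRCm38.p6) are shown because these partner chains parted. Capitals mark the letters CAGAC, a SMAD box, and TGANTCA, an AP-1 site, on either strand.
Col6a1 (chr10:76726045-76726294, minus strand): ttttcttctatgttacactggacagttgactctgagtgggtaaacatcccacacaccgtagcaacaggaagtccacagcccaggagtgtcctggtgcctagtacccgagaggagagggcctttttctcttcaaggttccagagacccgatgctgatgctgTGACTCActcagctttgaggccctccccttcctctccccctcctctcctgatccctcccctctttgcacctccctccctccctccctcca
Col6a2 (chr10:76623631-76623880, minus strand): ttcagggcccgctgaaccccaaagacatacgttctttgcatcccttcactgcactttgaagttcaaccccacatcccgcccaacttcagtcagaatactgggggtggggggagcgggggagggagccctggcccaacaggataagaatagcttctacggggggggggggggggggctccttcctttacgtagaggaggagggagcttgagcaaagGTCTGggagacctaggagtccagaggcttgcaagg
Col6a3 (chr1:90843972-90844221, minus strand): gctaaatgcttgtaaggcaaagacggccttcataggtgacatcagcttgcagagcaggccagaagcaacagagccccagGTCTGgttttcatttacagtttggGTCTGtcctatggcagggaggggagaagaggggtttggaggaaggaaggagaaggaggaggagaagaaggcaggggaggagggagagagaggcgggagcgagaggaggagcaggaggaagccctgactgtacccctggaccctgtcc

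*Col6a1* was read at 1171, 1286 and 1150 CPM in the vehicle libraries and at 483, 504 and 458 CPM in the TGFβ libraries. *Col6a2* was read at 726, 784 and 733 CPM and at 287, 315 and 307 CPM. Both fell to nearly the same share of the vehicle mean, 0.401 and 0.405 times, with groups far apart (log2 fold changes -1.32, SE 0.06, adjusted p = 8.7e-06, and -1.30, SE 0.06, adjusted p = 7.6e-06). *Col6a3*, in contrast, rose from 83.5, 91.5 and 111 CPM to 149, 154 and 141 CPM (log2 fold change 0.64, SE 0.10, adjusted p = 0.00156).

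The log2 ratio of *Col6a1* to *Col6a2* counts was 0.68 ± 0.03 with vehicle and 0.67 ± 0.09 with TGFβ, overlapping between groups (exact permutation test, p = 0.8). That of *Col6a1* to *Col6a3* went from 3.81, 3.81 and 3.38 to 1.69, 1.71 and 1.70, a narrow range in the TGFβ libraries. In terms of level per kilobase of exons, *Col6a1* exceeded *Col6a3* by 35.0 ± 5.72 times with vehicle and 8.89 ± 0.07 times with TGFβ. The annotation behind the counts is not given in the sources used here, and its part in the low level of *Col6a3* was not tested.

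Other chains of type VI were near the limit of detection. *Col6a6* was read with 91, 21 and 47 counts with vehicle and 1, 2 and 4 counts with TGFβ, that is 2.86, 0.708 and 1.58 CPM against 0.0366, 0.0716 and 0.140 CPM (log2 fold change -4.30, SE 0.72, adjusted p = 0.0026). It passed the filter on low counts through the vehicle libraries alone, so it had to differ. *Col6a5*, which shares 2.95% of its 75-base windows with other transcripts, mainly *Col6a6*, had 125, 2 and 32 counts with vehicle and 0, 1 and 2 with TGFβ and was not tested. *Col6a4* had 1 to 16 counts and was not tested. *Col6a5*, *Col6a6* and the mesothelial and cardiomyocyte lists were all highest in library A among the vehicle libraries and lowest in B. Among the TGFβ libraries the mesothelial list was highest in D, at 50.7 CPM, where *Col6a6* and *Col6a5* had their fewest counts, 1 and 0. The part of these cell types was not tested.

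*Col7a1* (chr9:108953586-108984875, plus strand) encodes the only chain of the anchoring fibril, which ties epithelial basement membranes to the tissue beneath. It was read at 7.54, 8.02 and 8.48 CPM with vehicle and 30.9, 28.8 and 31.7 CPM with TGFβ. The replicates were tight and the groups far apart, a 3.80-fold rise (log2 fold change 1.93, SE 0.07, adjusted p = 3.9e-06). Its 250 bases before the RefSeq start, with the same capitals, are shown as those of the chain with the smallest adjusted p.
Col7a1 (chr9:108953336-108953585, plus strand): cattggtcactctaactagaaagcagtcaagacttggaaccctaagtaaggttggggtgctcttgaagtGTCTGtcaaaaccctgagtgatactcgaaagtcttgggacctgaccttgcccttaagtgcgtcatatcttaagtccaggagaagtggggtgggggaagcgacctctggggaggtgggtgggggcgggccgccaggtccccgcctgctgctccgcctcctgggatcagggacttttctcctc

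The network chains *Col8a1* and *Col8a2* form type VIII collagen, known from vessel walls and the cornea. *Col8a2* (chr4:126286793-126314330, plus strand) had the largest rise of all collagen genes. It went from 4.53, 3.74 and 2.21 CPM with vehicle to 30.6, 29.8 and 28.8 CPM with TGFβ, 8.51-fold (log2 fold change 3.08, SE 0.19, adjusted p = 2.6e-05). Its partner *Col8a1* (chr16:57624258-57754737, minus strand), much the higher gene of the pair, went from 1993, 2054 and 1736 CPM to 2953, 3168 and 2635 CPM (log2 fold change 0.60, SE 0.09, adjusted p = 0.0015). The log2 ratio of *Col8a1* to *Col8a2* therefore went from 8.78, 9.10 and 9.62 to 6.59, 6.73 and 6.51. The third network gene, *Col10a1* of hypertrophic cartilage, was highest in C and F (3, 5 and 44 counts with vehicle, 10, 9 and 31 with TGFβ) and did not pass. It overlaps *Nt5dc1* on the opposite strand, which was counted far higher, so its counts are uncertain. The window of *Col8a2*, shown as that of the largest rise, holds neither motif.
Col8a2 (chr4:126286544-126286793, plus strand): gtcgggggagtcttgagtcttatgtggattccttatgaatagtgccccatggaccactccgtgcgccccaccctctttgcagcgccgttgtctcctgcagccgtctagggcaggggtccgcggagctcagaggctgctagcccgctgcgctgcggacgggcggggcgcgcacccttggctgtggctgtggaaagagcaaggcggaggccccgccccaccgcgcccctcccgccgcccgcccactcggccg

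In 250-base windows of this kind, a SMAD box was found in 15 of the 35 collagen genes with an entry (42.9%), beside 42.2% of all 32851 promoters in the table. The AP-1 letters were found in 1 of 35 (2.86%, *Col6a1*), beside 6.75%. The RefSeq start of *Col6a1* lies 124 bases inside the GENCODE gene, and its AP-1 letters fall between these starts, within the annotated gene. Searched the same way, CCAAT was in 12 of 35 (34.3%, beside 33.8%) and the GC box GGGCGG in 21 of 35 (60.0%, beside 32.7%). The table has no entry for *Col1a1*, *Col2a1*, *Col4a3*, *Col5a2*, *Col9a3*, *Col12a1*, *Col14a1*, *Col22a1* and *Col26a1*. Such matches describe letters in a window and no binding.

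**Figure D3:**
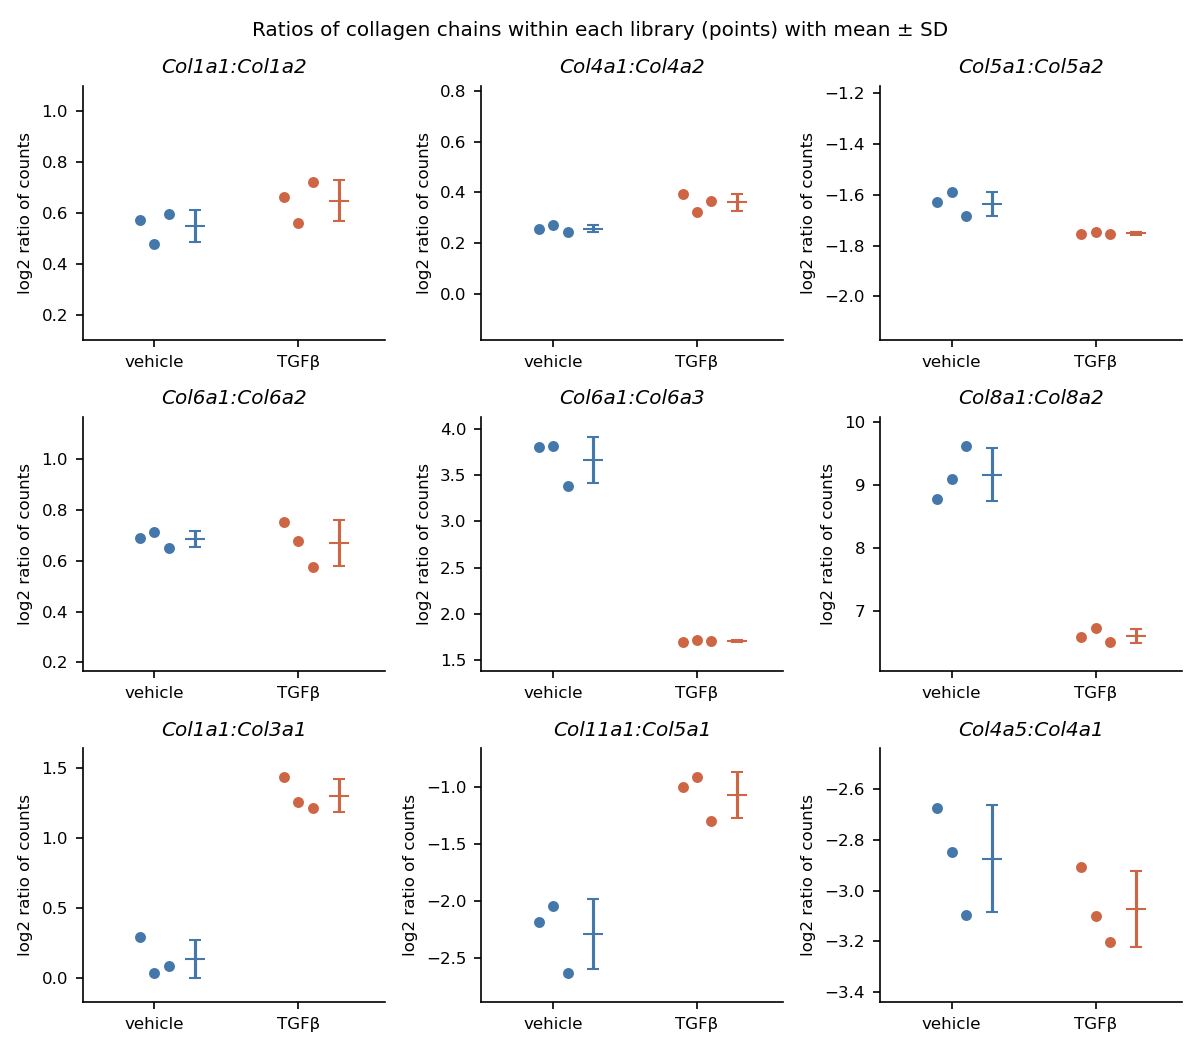
Log2 ratio of the counts of 9 pairs of collagen chains in each library (points), with the mean and SD of the 3 vehicle (blue) and 3 TGFβ (orange) libraries beside them, on vertical axes of different range. Col6a1:Col6a3, Col8a1:Col8a2, Col1a1:Col3a1 and Col11a1:Col5a1 moved by more than 1 log2 unit without overlap, while Col6a1:Col6a2 was near 0.68 in both groups.

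Over the 9 pairs compared, 6 did not overlap between the groups, each with an exact permutation p of 0.1 (0.15 after Benjamini-Hochberg adjustment over the pairs). These p-values do not account for the choice of pairs, which was made with earlier results of these data known. The share among pairs of other genes was not computed. The pairs that overlapped were *Col1a1* to *Col1a2* (0.55 ± 0.06 and 0.65 ± 0.08), *Col6a1* to *Col6a2*, and *Col4a5* to *Col4a1* (-2.87 ± 0.21 and -3.07 ± 0.15). *Col5a1* to *Col5a2* moved little, from -1.64 ± 0.05 to -1.75 ± 0.005.

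The FACIT chains, which coat fibrils, were split. *Col12a1* (chr9:79598991-79718831, minus strand) rose from 1656, 1466 and 1208 CPM to 2631, 2413 and 1795 CPM (log2 fold change 0.66, SE 0.16, adjusted p = 0.0127). *Col14a1* (chr15:55307750-55520803, plus strand), a related chain of similar place on the fibril, fell from 876, 1051 and 944 CPM to 520, 643 and 474 CPM (-0.81, SE 0.12, adjusted p = 0.00126). Groups did not overlap in either gene. *Col16a1* rose slightly, from a mean of 254 to 322 CPM (0.34, SE 0.06, adjusted p = 0.0033).

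*Col9a2*, of cartilage type IX, was read at 1.79, 2.06 and 1.54 CPM and at 2.60, 2.90 and 2.28 CPM (0.53, SE 0.17, adjusted p = 0.0395). This call was lost with DESeq2 (adjusted p = 0.0993) and without library A, C, D or E (0.0920 to 0.129). *Col9a1*, *Col9a3*, *Col20a1* and *Col22a1* had means of 0.284 to 0.555 CPM and did not pass. Of these, *Col9a3* overlaps *Tcfl5* and *Col20a1* overlaps a same-strand gene counted higher, which makes their counts uncertain. *Col19a1*, with 2 to 11 counts, was not tested.

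Of 3 tested transmembrane chains, 2 fell and none rose, beside 20.1% of all genes tested that fell. *Col13a1*, a chain of cell-matrix junctions, had 16, 24 and 14 counts with vehicle and 6, 6 and 4 with TGFβ, or 0.503, 0.809 and 0.469 CPM against 0.219, 0.215 and 0.140 CPM (log2 fold change -1.61, SE 0.36, adjusted p = 0.0091). Like *Col6a6*, it passed the filter through vehicle libraries alone, so it had to differ. *Col23a1* went from a mean of 7.82 to 5.85 CPM (-0.42, SE 0.13, adjusted p = 0.0400), a call lost with limma-voom (0.0522) and without library B, C, D or E (0.0899 to 0.131). *Col17a1*, of epithelial hemidesmosomes, had 5 to 11 counts and did not pass, and *Col25a1*, with 0 to 2 counts, was not tested.

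*Col28a1* (chr6:7997808-8192617, minus strand), a chain outside the classes known mainly from peripheral nerve, had the steepest fall among collagen chains read above the filter's cutoff in both groups. It was read at 55.3, 50.2 and 54.4 CPM with vehicle and 14.0, 12.0 and 16.6 CPM with TGFβ, 0.267 times the vehicle mean (log2 fold change -1.91, SE 0.11, adjusted p = 1.6e-05). Schwann cell markers, 5 of 8 tested and none called, summed to 17.6 to 20.9 CPM with vehicle and 17.7 to 20.3 CPM with TGFβ. *Col26a1*, also outside the classes, had 1 to 11 counts and was not tested.

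The multiplexins varied widely among libraries of a group. *Col15a1* was read at 149, 151 and 270 CPM with vehicle and 158, 169 and 252 CPM with TGFβ, and it did not pass (log2 fold change 0.02, SE 0.26). *Col18a1*, the source of endostatin, was read at 129, 133 and 193 CPM with vehicle and 86.5, 89.9 and 127 CPM with TGFβ (-0.58, SE 0.19, adjusted p = 0.0444). Its call was lost with DESeq2 (adjusted p = 0.0870) and without library B, C, D or E (0.0530 to 0.148). Libraries C and F were the highest of their groups for both genes and for *Col5a3*. This order was not particular to these chains. *Col1a1*, *Col3a1* and the fibroblast markers *Dcn* and *Lum* were also highest in C and F, while the summed fibroblast list was highest in B and E. The endothelial list was highest in C and F, at 448, 507 and 691 CPM in A to C and 406, 448 and 560 CPM in D to F. Its part in these values was not tested.

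**Figure D4:**
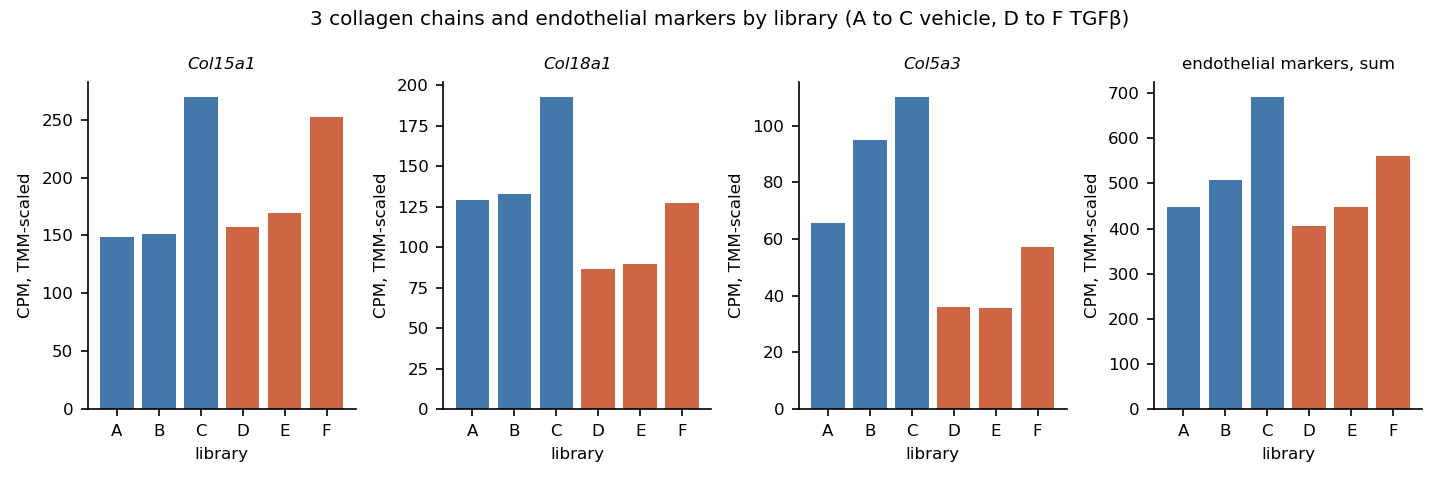
Levels in CPM (TMM-scaled, bars from 0) of Col15a1, Col18a1 and Col5a3 and the summed level of 8 endothelial markers in vehicle libraries A to C (blue) and TGFβ libraries D to F (orange). In all 4 panels library C is the highest of the vehicle libraries and library F the highest of the TGFβ libraries.

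By class, fibrillar chains supplied 73.8% ± 1.40 of the summed collagen level per kilobase of exons with vehicle and 76.2% ± 1.79 with TGFβ, with overlap. That difference of 2.47 percentage points was 1.16 with the longest transcript as length and 1.46 without library F. Basement membrane chains went from 16.1% ± 0.68 to 14.3% ± 1.02 and network chains from 2.64% ± 0.35 to 4.13% ± 0.41. Beaded chains showed the widest relative drop among classes above 1%, from 4.15%, 4.13% and 3.63% to 1.77%, 1.78% and 1.64%. With the longest transcript as length they went from 3.43% ± 0.26 to 1.52% ± 0.06. FACIT chains made up 2.88% ± 0.27 and 3.01% ± 0.45, and multiplexins 0.543% ± 0.141 and 0.486% ± 0.114. The anchoring fibril chain went from 0.0083% ± 0.00013 to 0.0323% ± 0.0020, transmembrane chains from 0.0163% ± 0.0020 to 0.0122% ± 0.00048, and the pair outside the classes from 0.116% ± 0.012 to 0.0317% ± 0.0049. Of the 9 classes, 6 did not overlap between groups (exact permutation test, p = 0.1 each, 0.15 after adjustment over the classes). One of these, the basement membrane class, did overlap with the longest transcript as length. Its shares were then 12.3%, 12.7% and 11.6% with vehicle and 11.3%, 11.8% and 10.3% with TGFβ. Among single genes tested, 53.3% did not overlap in CPM. The shares add up to the whole collagen level, so they depend on each other. The classes too were chosen with earlier results of these data known, which these p-values do not account for.

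**Figure D5:**
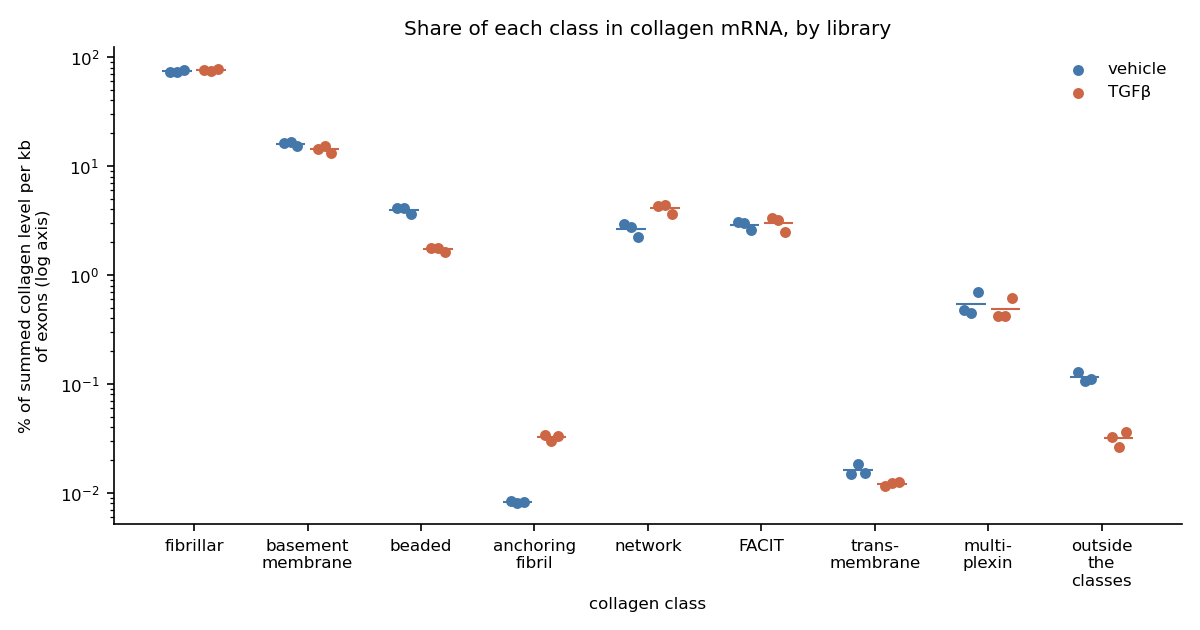
Share of each collagen class in the summed collagen level per kilobase of exons, in percent on a log axis, for each vehicle (blue) and TGFβ (orange) library, with a line at the group mean. Fibrillar chains make up 73.8% and 76.2% on average, beaded chains drop from 3.97% to 1.73%, and anchoring fibril and network chains move up.

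Among genes that modify or cross-link collagen chains, those that changed rose. Counts in this list and those that follow stand beside 20.5% of all genes tested that rose and 20.1% that fell. Of 19 genes for chain modification and folding, which hydroxylate and glycosylate the chains and assist helix formation, 12 rose and none fell (median log2 fold change 0.32). They included *P3h1*, a prolyl 3-hydroxylase (0.81, SE 0.04), and *Fkbp10*, a collagen chaperone (0.78, SE 0.04). All 6 cross-linking genes rose (median 1.01), the largest being *Loxl3* (1.78, SE 0.06) and *Loxl4* (1.08, SE 0.13), both lysyl oxidases. Of 15 tested genes for secretion and processing, 8 rose and 4 fell (median 0.18). *Tll1*, a protease of the C-propeptide, rose by 2.62 (SE 0.57) with 34.8 CPM in library D against 8.24 and 14.3 CPM in E and F, and *Adamts14*, a protease of the N-propeptide, fell (-0.94, SE 0.06).

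Of 10 tested collagen receptors, 2 were higher and 5 lower (median -0.47). *Itga11* of the collagen-binding integrin α11 rose (1.13, SE 0.07) and *Itga1* fell (-0.95, SE 0.06). Of 15 tested fibril-associated proteins 3 rose and 7 fell (median -0.05), with the largest falls in *Tnxb*, a tenascin (-3.08, SE 0.14), and *Prelp*, a leucine-rich proteoglycan (-2.12, SE 0.05). In the degradation list 1 of 13 rose and 7 fell (median -0.33), among them *Mmp3* (-1.36, SE 0.33) and *Fap* (-1.28, SE 0.28). The degradation count of 8 fell to 4 when library C, D or E was left out. The 2 of 10 receptors and the 3 of 15 fibril-associated genes that rose are near the 20.5% of all genes tested. The 4 of 15 secretion and processing genes that fell are not far from the 20.1% of all genes tested. All these medians stand beside -0.0013 for all genes tested.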

How the data were processed

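RNA-seq of 3 vehicle and 3 TGFβ libraries was used. The authors sequenced single-end reads of 75 bases from stranded mRNA libraries, aligned them to mm10 and deposited whole-number counts per gene without normalization. The aligner, counting tool, annotation and strand setting are not given in the sources used here. The deposited mean, fold change and p-values of the authors' DESeq2 comparison were not used.

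Libraries were scaled with TMM factors and filtered with filterByExpr (at least 0.344 CPM in 3 libraries and 15 counts in all), and TGFβ was compared with vehicle by the edgeR 4.0.16 quasi-likelihood test without covariates in R 4.3.3, with Benjamini-Hochberg adjustment over 14334 genes. The standard error is the fold change over the square root of F. Shares and ratios were compared with two-sided exact permutation tests over libraries. Values after ± are the SD over 3 libraries. Lengths and gene positions are from GENCODE M21, which matched all 44 members, and promoter sequences from RefSeq, which matched 35. Totals of 27851677 to 31072338 counts make counting error small for all but the lowest members.

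Values in every library are given for called members that changed by 0.5 or more on the log2 scale and for the main chains of types I, III, IV, V and VI, the others by mean, range or counts, and at most 2 called genes per pathway list, those with the largest fold change at a mean of 5 CPM or more. Members, classes, lists and pairs were chosen with earlier results of these data known. Alternatives were DESeq2 1.42.0, limma-voom (limma 3.58.1), DESeq2 size factors or upper quartile scaling in edgeR, no low-count filter or one of 1 CPM in at least 3 libraries, omission of single libraries, other thresholds, and other lengths and denominators.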

Additional observations from a re-analysis of the deposited data

How the results depend on the processing

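Of the 23 calls, 19 kept direction and side of the threshold in each of 12 other fits that tested them, and the exceptions were *Col4a5*, *Col9a2*, *Col18a1* and *Col23a1*, given above. The 19 include *Col6a6* and *Col13a1*, which passed the filter on low counts through the vehicle libraries alone and so had to differ. The fit with a filter of 1 CPM did not test either gene. Requiring a log2 fold change beyond 1 left 10 calls, 4 higher and 6 lower, beside 6.77% of all genes tested (346 higher and 625 lower). Without single libraries the calls ranged from 20 to 22, while 30.8% to 37.6% of all genes tested were called. DESeq2 called 24 of 42 chains, beside 32.6% of all 15392 genes it tested. DESeq2 size factors moved the median of all genes by -0.0034 and upper quartile scaling by -0.021 on the log2 scale.

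Direction turned for 5 chains that had not passed. Without single libraries the lowest and highest log2 fold changes were -0.44 and 0.40 for *Col9a3* (limma-voom -0.027), -0.74 and 2.16 for *Col10a1*, -0.22 and 0.36 for *Col15a1*, -0.22 and 0.16 for *Col20a1*, and -0.11 and 0.12 for *Col27a1*. Reversed values were -0.28 and -0.44 (*Col9a3*), -0.47, -0.37 and -0.74 (*Col10a1*), -0.13, -0.12 and -0.22 (*Col15a1*), 0.04 and 0.16 (*Col20a1*), and 0.11 and 0.12 (*Col27a1*).

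Differences in class share (percentage points, TGFβ minus vehicle) moved when counts were not divided by length, to 0.84 for fibrillar, -1.40 for beaded, 0.030 for the anchoring fibril, 0.71 for FACIT and -0.050 for chains outside the classes. With the longest transcript they were -1.91, 0.019 and -0.069 for beaded, anchoring fibril and outside, and -1.10 in place of -1.73 for basement membrane. The collagen share difference of -0.46 points was -0.18 over TMM-scaled sizes, -0.26 per kilobase, -0.73 without library A and -0.24 without C, and the FACIT and multiplexin differences changed sign without single libraries (-0.021 and -0.027 for FACIT without C and D, 0.024 for multiplexins without C). For degradation the calls ranged from 4 to 8 without single libraries. Low counts limit *Col6a4*, *Col6a5*, *Col19a1*, *Col25a1* and *Col26a1*. No paired analysis was possible because the count columns carry no replicate number. Summed endothelial, leukocyte, mesothelial and cardiomyocyte markers took the same order over D to F as over A to C. The fibroblast, chondrocyte and Schwann cell sums did so too, but the smooth muscle and pericyte sum did not. Such an order is a hint from the data and no label, so column order was not used to pair libraries.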
